A study of Mus musculus with 14 samples.

Results

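The genes examined were Vcam1, Cd163, Spic, Hmox1, Slc40a1, Timd4, Fcna, Cd5l, Mrc1 and Siglec1, which mark resident and iron-recycling macrophages of the bone marrow. They were taken as every probe that carries 1 of these gene names, which gave 15 of the 41174 probes on the array. The genes were selected on their role in marrow macrophages and on measured values, a large difference between the 2 stem cell arrays, so that difference is given here as a description, with no test. Each of 14 mouse RNA samples, labelled with Cy3, was read on its own single-colour Agilent array. The labels give 6 groups: myeloid progenitors (titled GMP) with 3 samples of each genotype, wild type or Rheb1-/-, myeloid cells likewise, and hematopoietic stem cells with a single sample per genotype. Rheb1-/- stands for Vav1-cre; Rheb1fl/fl, in which Cre driven by the blood-cell promoter Vav1 removes the floxed gene. By this design macrophages descended from blood stem cells may lack the gene as well, which was not measured here. The wild-type animals are named only as wild type; whether they carried floxed alleles or Cre, and the age, strain and sorting markers, are not given in the sources used here. Which animals the samples came from is not given either, and the p-values therefore reflect only sample-to-sample spread, part of which may be technical.

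Macrophages that stay in the marrow engulf worn red blood cells and the nuclei that maturing erythroblasts expel. Haem freed in this way induces the transcription factor SPI-C, haem oxygenase opens the haem ring, and ferroportin returns the iron to the blood. Other genes of the set encode surface receptors and secreted proteins by which such macrophages take up haemoglobin complexes, dying cells and glycoproteins or hold on to developing blood cells.

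The array carried 3 probes for Vcam1, 2 each for Spic, Hmox1 and Siglec1, and 1 for each of the other 6 genes. The opening bases of the probes of the 4 genes with several probes are shown because at Hmox1 and Siglec1 the probes gave different calls. Each line holds the first 30 of 60 bases, 5′ to 3′, as the scanner files list them, and nothing in them is capitalised because no part is singled out.
Vcam1 A_51_P210956: tatatttttataggcaaatggtaaagaggt
Vcam1 A_52_P462332: ggggaacaatgaatcaagatactagtgatt
Vcam1 A_52_P520495: aaccaagagtttggaagtaacctttactcc
Spic A_51_P389885: gagccagaatgtcttcagaaaaatgtgggg
Spic A_52_P361323: tggtgttaaaagaaacctagatgtttcaga
Hmox1 A_51_P263965: atggttgtaagcatccatgttgactgacca
Hmox1 A_52_P602559: acatgtattctgagttggtcccgttatatt
Siglec1 A_51_P359891: atatcagtcaggttgctctaacagagactc
Siglec1 A_52_P519960: aggaacatccttcccggggatccagtcaca

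In mm9 coordinates, as the files give them, the Vcam1 probes lie on the minus strand at chr3:115813216-115813275, chr3:115819972-115820031 and chr3:115828953-115829012, in the order printed. The middle one is assigned to a different transcript record from the other two. The Spic probes lie close together on the minus strand, at chr10:88138053-88138112 and chr10:88138166-88138225. The Hmox1 probes lie on the plus strand at chr8:77624207-77624266 and chr8:77620085-77620144, and the second is assigned to a separate Ensembl transcript. The Siglec1 probes, both assigned to 1 RefSeq transcript, lie on the minus strand at chr2:130895209-130895268 and chr2:130909693-130909752. The files do not say which exon or untranslated region a probe falls in.

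The level of a probe is given throughout as the log2 processed intensity minus the 75th percentile of its array, so 0 is a bright probe and each unit is a doubling. Levels of different probes cannot be set against each other. Between 58.5% and 67.6% of the probes of an array were well above background, 0 spots were saturated, and replicate arrays correlated at 0.987 to 0.991 over all probes. Rheb itself lay between 3.78 and 4.04 in wild-type progenitors and between 2.60 and 3.26 in Rheb1-/- progenitors, with a log2 difference of -1.08 (SE 0.22, limma adjusted p = 0.104). In myeloid cells it fell by 0.89 (SE 0.22, adjusted p = 0.0121), and the stem cell arrays read 3.46 and 2.26. All 12 stem cell markers listed were well above background on both stem cell arrays. In wild-type myeloid cells 10 of 14 neutrophil and 7 of 9 monocyte markers were called higher than in wild-type progenitors, where 38.1% of all probes were. The other neutrophil markers had lower means in wild-type myeloid cells than in wild-type progenitors: Elane (4.84 and 6.85), Mpo (8.73 and 9.41), Prtn3 (4.32 and 7.15) and Ctsg (7.10 and 9.03). Each myeloid group and each stem cell array lay on a slide of its own within its cell type, so slide and genotype cannot be told apart there. The male transcript Ddx3y (probe A_51_P402994) was at 0.51 and 1.18 on wild-type myeloid arrays 1 and 3 and at -3.35 on array 2. It was not well above background on the 3 Rheb1-/- myeloid arrays or the Rheb1-/- stem cell array, and it was at 0.00 on the wild-type stem cell array. Results in myeloid cells were therefore also computed without wild-type arrays 1 and 3, a choice made after seeing the data.

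The wild-type stem cell array held the highest level of the 14 arrays for each of the 15 probes. On the Rheb1-/- stem cell array every probe was lower. Of the 25971 probes well above background on both stem cell arrays, 5.69% were lower by more than 2-fold and 0.601% by more than 16-fold. All 13 probes of the set that met this condition were past 2-fold and 12 were past 16-fold, as the choice of the genes fixes. The median of all probes was 0.12 higher on the Rheb1-/- array. Cd5l, a secreted scavenger-receptor protein of tissue macrophages, went from 5.46 to -0.52, a 63.2-fold difference. Fcna, the lectin ficolin A, went from 4.60 to -1.21, 56.3-fold. Timd4, a receptor for phosphatidylserine on dying cells, went from 0.16 to -5.59, 53.7-fold. These were the widest differences of the set. The narrowest was Siglec1 probe A_52_P519960, at -3.24 and -6.05, 6.99-fold. A pair of probes was not well above background on the Rheb1-/- array and gives only a bound: Vcam1 A_52_P462332 was at least 7.79-fold lower and Hmox1 A_52_P602559 at least 15.9-fold lower. With 1 array per genotype there is no replicate check.

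**Figure D1:**
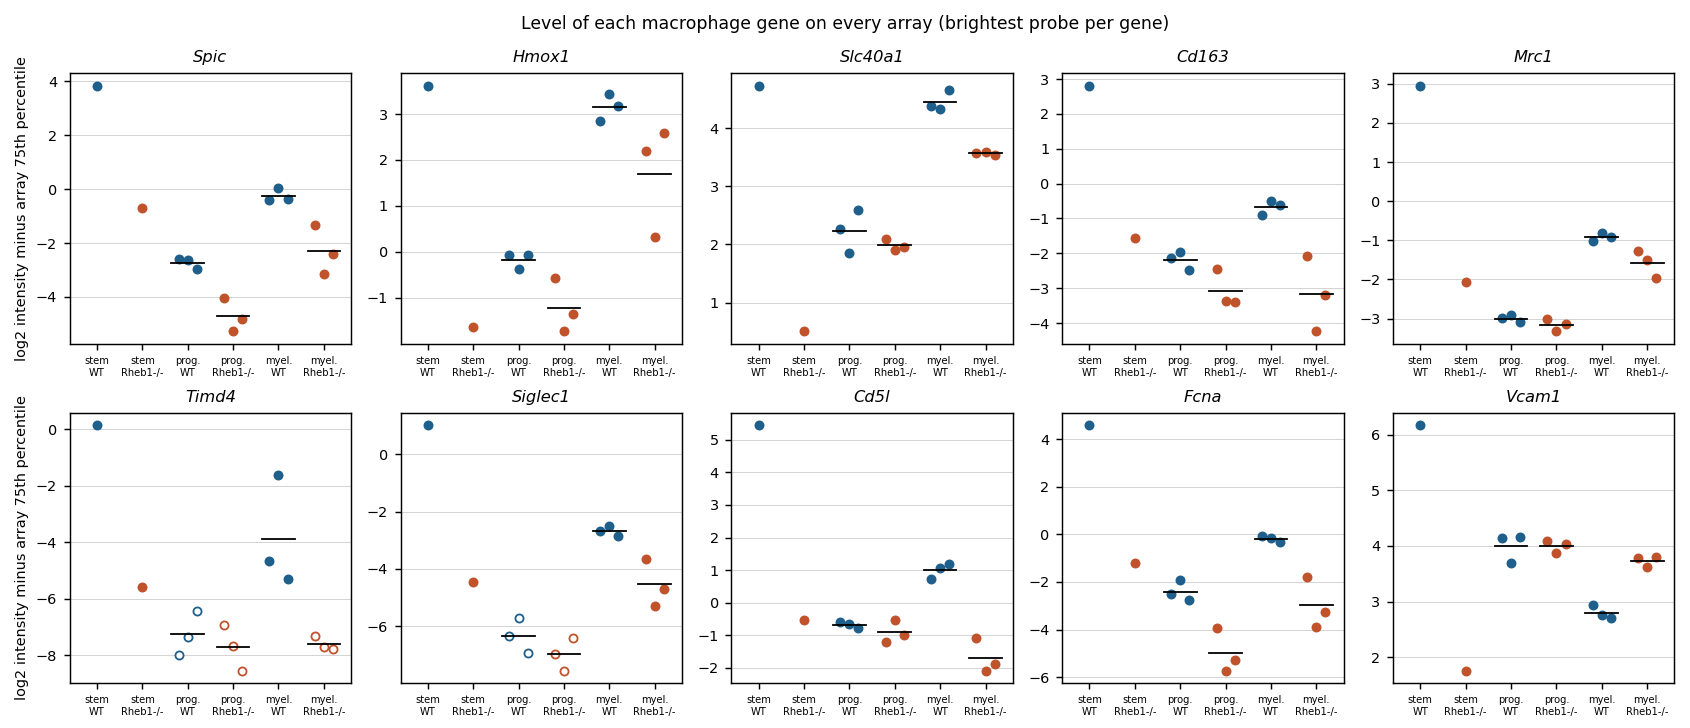
Level of each gene on each of the 14 arrays, at the brightest probe of the gene; the vertical axis is log2 intensity minus the array's 75th percentile, with a scale of its own in each panel, blue is wild type (WT), orange is Rheb1-/-, open circles are not well above background, and black lines are means of 3 arrays. The wild-type stem cell array is the highest point in every panel, and Vcam1 alone among the 10 panels has its Rheb1-/- myeloid arrays above its wild-type myeloid arrays.

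In myeloid cells, 9 probes of 8 genes fell in Rheb1-/- samples and all 3 Vcam1 probes rose, while Hmox1 did not pass the test at either probe. The 12 passing probes of 15 stand beside 31.6% of all 27144 probes tested (15.5% higher, 16.1% lower). The median over the set was -1.46, against -0.07 over all probes. Groups did not overlap for 3 probes that were higher and 10 that were lower, where 20.4% and 26.8% of all probes did so. All 15 probes passed the filter on low signal, but Timd4 and Hmox1 A_52_P602559 did so only through wild-type myeloid cells, and Siglec1 A_51_P359891 only through the myeloid groups, so these had less room to be equal. In such bulk samples fewer cells of a type and less RNA per cell cannot be told apart.

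Among the genes of haem and iron recycling, Spic, whose product is needed for the red-pulp type of macrophage, stood at -0.41, 0.05 and -0.38 in wild-type myeloid cells and at -1.33, -3.15 and -2.41 in Rheb1-/- myeloid cells at probe A_51_P389885. The groups did not overlap, and the Rheb1-/- arrays were spread over a wider range. Spic fell by 2.05 (SE 0.42, adjusted p = 0.00571), a 4.13-fold difference, and by 2.46 (SE 0.64, adjusted p = 0.0165) at probe A_52_P361323. Slc40a1, the iron exporter ferroportin, stood at 4.38, 4.32 and 4.66 in wild-type and at 3.58, 3.58 and 3.53 in Rheb1-/- cells, and fell by 0.89 (SE 0.17, adjusted p = 0.00353). The 3 Rheb1-/- arrays were almost level with each other and all lay below the wild-type arrays. Cd163, the receptor for haemoglobin bound to haptoglobin, stood at -0.89, -0.50 and -0.62 in wild-type and at -2.08, -4.23 and -3.20 in Rheb1-/- cells. It fell by 2.50 (SE 0.46, adjusted p = 0.00322), 5.65-fold, and no array of one genotype reached the range of the other.

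Hmox1, haem oxygenase 1, stood at 2.84, 3.44 and 3.17 in wild-type myeloid cells and at 2.19, 0.33 and 2.58 in Rheb1-/- cells at probe A_51_P263965. All Rheb1-/- arrays were lower than all wild-type arrays, but array 2 lay far below the other two. The log2 difference was -1.46 (SE 0.51, adjusted p = 0.0515), and -0.77 without Rheb1-/- array 2. It passed under 6 of 23 alternative settings, with adjusted p from 0.0131 to 0.187 over them. The probe A_52_P602559 stood at -5.56, -4.69 and -4.83 in wild-type and at -5.51, -5.35 and -4.39 in Rheb1-/- cells, the first 2 of these not well above background. Its groups overlapped and its difference was -0.06 (SE 0.34, adjusted p = 0.915).

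Among the receptors for glycoproteins and dying cells, Siglec1, the sialic-acid receptor CD169 of marrow macrophages, stood at -2.68, -2.51 and -2.86 in wild-type myeloid cells and at -3.65, -5.28 and -4.69 in Rheb1-/- cells at probe A_51_P359891. It fell by 1.86 (SE 0.43, adjusted p = 0.00994), 3.63-fold, and the value with normexp was -0.97, which also passed. The other probe, A_52_P519960, did not separate the genotypes: it stood at -5.87, -5.94 and -5.83 in wild-type and at -5.60, -5.99 and -6.67 in Rheb1-/- cells, with 3 of these 6 arrays not well above background. Mrc1, the mannose receptor CD206, stood at -1.03, -0.81 and -0.91 in wild-type and at -1.26, -1.51 and -1.97 in Rheb1-/- cells. It fell by 0.67 (SE 0.16, adjusted p = 0.0125), the smallest called fall of the set. Timd4 stood at -4.68, -1.63 and -5.31 in wild-type cells and was not well above background in Rheb1-/- cells, where it read -7.31, -7.72 and -7.78. It was at least 3.29-fold lower (adjusted p = 0.00783). Its size rested on wild-type array 2: the fitted difference was -3.73 with all arrays, -2.61 without wild-type array 2, -5.97 without wild-type arrays 1 and 3, and -1.05 with normexp background correction.

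Both secreted proteins had lower transcript levels in Rheb1-/- myeloid cells. Cd5l stood at 0.72, 1.06 and 1.19 in wild-type myeloid cells and at -1.09, -2.09 and -1.88 in Rheb1-/- cells, with wide space between the groups. It fell by 2.68 (SE 0.26, adjusted p = 2.56e-04), 6.40-fold. Fcna stood at -0.06, -0.14 and -0.33 in wild-type and at -1.79, -3.91 and -3.25 in Rheb1-/- cells and fell by 2.81 (SE 0.55, adjusted p = 0.00427), 6.99-fold. The Rheb1-/- myeloid arrays kept 1 order at several genes: array 1 was the highest and array 2 the lowest for Spic, Cd163, Siglec1 A_51_P359891, Cd5l and Fcna.

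Vcam1, the adhesion molecule by which marrow macrophages and stromal cells hold blood cells through the integrin of Itga4 and Itgb1, went the other way. At probe A_51_P210956 it stood at 2.94, 2.75 and 2.70 in wild-type myeloid cells and at 3.77, 3.62 and 3.81 in Rheb1-/- cells. The groups lay well apart and neither spread widely. It rose by 0.94 (SE 0.13, adjusted p = 1.00e-03), 1.91-fold. Probe A_52_P520495 stood at -1.78, -1.82 and -1.83 in wild-type and at -0.77, -0.85 and -0.55 in Rheb1-/- cells and rose by 1.09 (SE 0.11, adjusted p = 3.19e-04). The third probe, A_52_P462332, rose by 0.89 (SE 0.29, adjusted p = 0.0426), with only 1 of the 3 wild-type arrays well above background. That last call held under 8 of 21 alternatives. It was lost when wild-type progenitor array 2 or 3, Rheb1-/- progenitor array 2, wild-type myeloid array 1 or 2, or any Rheb1-/- myeloid array was left out, with values from 0.70 to 1.25 over all single arrays left out, and the value with normexp was -0.02 (adjusted p over all alternatives 0.00483 to 0.928).

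Without wild-type myeloid arrays 1 and 3, whose remaining partner is assumed to vary like the other groups, 7 of the 12 probes no longer passed: Fcna, Cd163, Slc40a1, Mrc1, Siglec1 A_51_P359891 and both Spic probes. Their values were -2.84, -2.67, -0.76, -0.77, -2.03, -2.34 and -2.81, with an adjusted p just over the threshold for Cd163 and up to 0.108 for the rest. Over all alternatives the adjusted p of these probes lay between 1.85e-04 and 0.108. Cd5l at -2.75, Timd4 and the 3 Vcam1 probes still passed. The call at Spic A_52_P361323 was also lost without wild-type myeloid array 2 at -2.28 (adjusted p = 0.0542) and without Rheb1-/- myeloid array 2 at -1.91 (adjusted p = 0.0592).

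**Figure D2:**
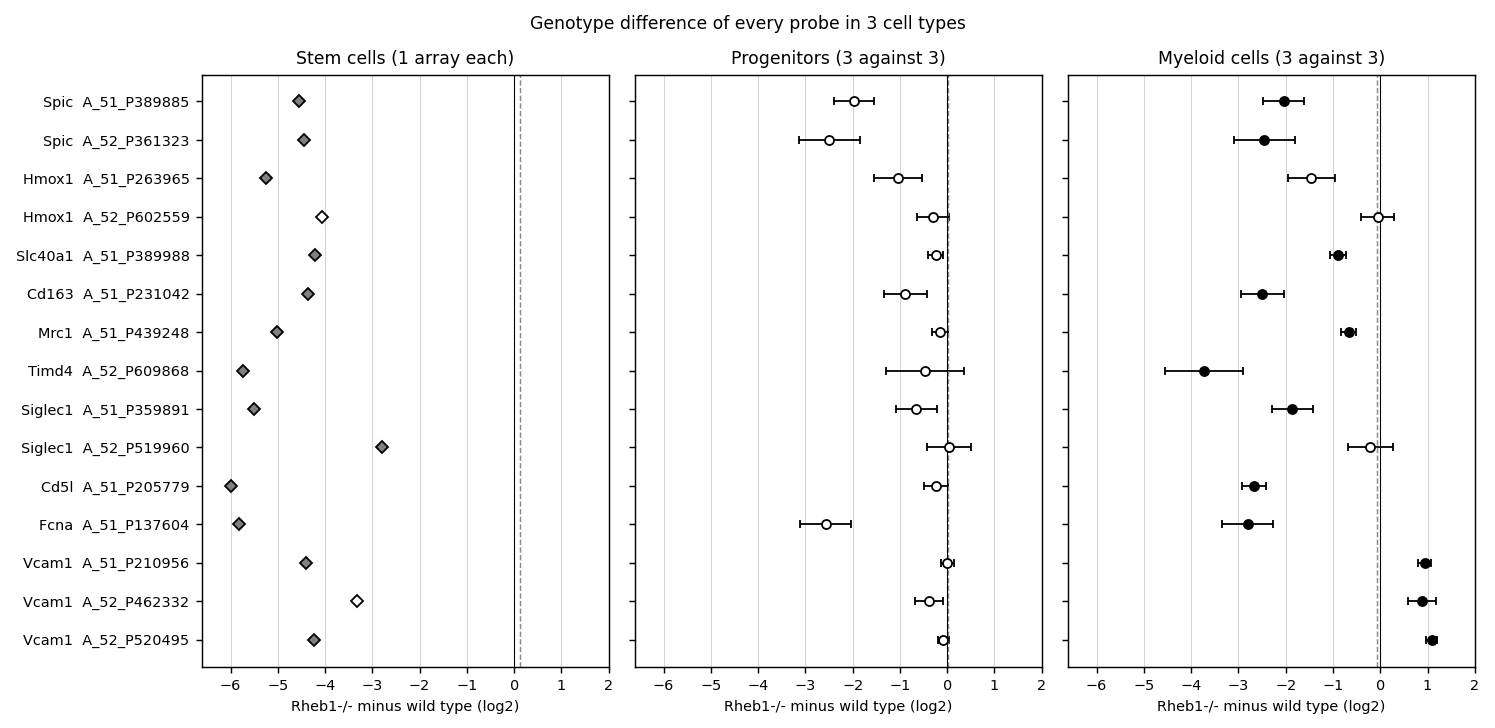
Rheb1-/- minus wild type on the log2 scale for every probe of the 10 genes, in stem cells (1 array each, no error, open diamonds not well above background on both arrays), progenitors and myeloid cells (points with standard errors, filled where the limma adjusted p was under 0.05). Dashed lines are the median of all probes. All probes lie left of 0 in stem cells, none is filled in progenitors, and in myeloid cells the 3 Vcam1 probes lie right of 0 while the other filled points lie left of it.

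In progenitors limma passed 0 of the 15 probes, where 0.0958% of all probes did, and 3 had an unadjusted p under 0.05, where 11.3% of all probes did. The differences were below 0 at 13 probes, with a median of -0.38 against 0.02 over all probes. The widest were at Fcna and Spic. Fcna stood at -2.52, -1.92 and -2.78 in wild-type and at -3.95, -5.72 and -5.28 in Rheb1-/- progenitors, a difference of -2.57 (SE 0.55, adjusted p = 0.113). Spic stood at -2.60, -2.61 and -2.98 in wild-type and at -4.04, -5.27 and -4.80 in Rheb1-/- progenitors at probe A_51_P389885, a difference of -1.97 (SE 0.42, adjusted p = 0.114). At Spic A_52_P361323 the difference was -2.50 (SE 0.64, adjusted p = 0.172). Groups did not overlap at these 3 probes and at Hmox1 A_51_P263965, which read -0.07, -0.37 and -0.07 in wild-type and -0.57, -1.73 and -1.34 in Rheb1-/- progenitors. This gave 4 of 15 probes that were lower without overlap, where 8.09% of all probes met this.

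Of the progenitor arrays, 2 of each genotype shared a slide, and within it the difference was -2.49 at Fcna, -1.86 and -2.34 at the Spic probes and -0.93 at Hmox1 A_51_P263965, none of which passed (adjusted p 0.570 to 0.729). Over all alternatives the adjusted p lay between 0.0513 and 0.576 for Fcna, between 0.0679 and 0.702 for Spic, and between 0.207 and 0.898 for Hmox1 A_51_P263965. The sizes moved as well: the difference ran from -3.09 without Rheb1-/- progenitor array 1 to -1.26 with normexp for Fcna. In the same 2 settings it ran from -2.30 to -0.94 for Spic A_51_P389885 and from -3.16 to -0.46 for Spic A_52_P361323. Markers of megakaryocytes and platelets moved beside these genes: all 10 were below 0 in progenitors, with a median of -1.63 and a summed level, in units of the array's 75th percentile, of 31.5 to 49.7 in wild-type and 8.32 to 17.0 in Rheb1-/- samples. Of the 10, limma passed 0, with 10 at an unadjusted p under 0.05, while with normexp 5 passed as lower. Their part in the differences at Fcna and Spic was not tested. Vcam1 in progenitors was nearly level, at 4.14, 3.70 and 4.15 in wild-type and 4.09, 3.87 and 4.04 in Rheb1-/- samples at A_51_P210956, a difference of 0.00 (SE 0.13). Cd5l stood at -0.59, -0.65 and -0.78 against -1.22, -0.53 and -0.99, and Slc40a1 at 2.26, 1.85 and 2.59 against 2.09, 1.91 and 1.96; both overlapped. Timd4 and Siglec1 A_51_P359891 were not well above background on any progenitor array, so no fold is given.

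The genotype effect itself differed between myeloid cells and progenitors at 3 probes, 2 higher and 1 lower, where 9.38% of all probes passed this test (4.63% higher, 4.75% lower). For Cd5l it was -2.44 (SE 0.36, adjusted p = 0.00925). For Vcam1 it was 0.94 (SE 0.19, adjusted p = 0.0194) and 1.17 (SE 0.16, adjusted p = 0.00834) at probes A_51_P210956 and A_52_P520495. Cd5l and Vcam1 A_51_P210956 no longer passed without wild-type myeloid arrays 1 and 3, at -2.51 and 0.98 (adjusted p = 0.0505 and 0.0811; over all alternatives 0.00348 to 0.0505 and 0.00759 to 0.0811). For Fcna and the Spic probes the effects in the 2 cell types differed by -0.23 (SE 0.77), -0.07 (SE 0.60) and 0.04 (SE 0.91), intervals too wide to call the effects alike. With normexp the last of these, at Spic A_52_P361323, was -0.87, of the other sign, and passed (limma adjusted p = 0.0443).

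Across cell types in wild-type samples, 11 probes of 9 genes were higher in myeloid cells than in progenitors and the 3 Vcam1 probes were lower, where 76.8% of all probes passed (38.1% higher, 38.7% lower). Of the 11, Timd4, Hmox1 A_52_P602559 and Siglec1 A_51_P359891 passed the filter on low signal through myeloid groups only, so their being higher there was largely fixed by the filter. Hmox1 A_51_P263965 differed by 3.32 (SE 0.51, adjusted p = 1.44e-04) and Spic A_51_P389885 by 2.48 (SE 0.42, adjusted p = 3.26e-04). Slc40a1 differed by 2.22 (SE 0.17, adjusted p = 6.73e-07) and Mrc1 by 2.08 (SE 0.16). Siglec1 A_51_P359891 was at least 7.85-fold and Timd4 at least 3.44-fold higher in myeloid cells. These bounds are from the processed intensities; with normexp the fitted log2 differences were 1.52 for Siglec1 and 1.14 for Timd4, against 3.65 and 3.38, and both still passed. Vcam1 differed by -1.20 (SE 0.13, adjusted p = 1.33e-05) at A_51_P210956. At Vcam1 A_52_P462332 the difference of -1.79 became -0.17 with normexp and no longer passed (adjusted p = 0.339; 1.48e-05 to 0.339 over all alternatives). The call at Cd163, 1.51 (SE 0.46, adjusted p = 0.0115), was lost without wild-type myeloid arrays 1 and 3, at 1.69 (adjusted p = 0.0678; 1.87e-04 to 0.0678 over all alternatives).

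In Rheb1-/- samples 8 probes of 6 genes were higher in myeloid cells, 2 were lower and 5 did not pass, where 68.1% of all probes passed (29.6% higher, 38.5% lower). The 8 include Siglec1 A_51_P359891, for which the filter again largely fixed the direction. They also include Hmox1 A_52_P602559, which passed the filter only through wild-type myeloid cells. It was well above background on 1 of 3 Rheb1-/- myeloid arrays and on 0 Rheb1-/- progenitor arrays. Those that did not pass included Cd163 at -0.10 (SE 0.46) and Timd4, which was not well above background in either Rheb1-/- group. The test of the difference between the cell-type steps is the same as that between the genotype effects. It did not pass for Cd163 (adjusted p = 0.136) or Timd4 (adjusted p = 0.102), so passing in wild type alone does not show a difference between the genotypes. For Cd163 it passed under 2 of 22 alternatives, with adjusted p from 0.0263 to 0.255 with 1 array left out. For Timd4 the adjusted p was 0.0696 to 0.194 with 1 array left out. The Timd4 value moved from -3.26 to -5.51 without wild-type myeloid arrays 1 and 3, which leaves 1 array in that group. Cd5l, at 1.67 (SE 0.26, adjusted p = 1.54e-04) in wild type, differed by -0.77 (SE 0.26, adjusted p = 0.0208) in Rheb1-/- samples, so that Rheb1-/- myeloid cells were lower than Rheb1-/- progenitors, with overlapping groups. This last call was lost without Rheb1-/- progenitor array 2, myeloid array 2 or myeloid array 3, at -0.58, -0.57 and -0.68 (adjusted p = 0.0842, 0.0825 and 0.0688), and with slide as a fixed block at -0.70 (adjusted p = 0.172; 0.00148 to 0.172 over all alternatives). Spic A_51_P389885 differed by 2.41 (SE 0.42, adjusted p = 5.03e-04) in Rheb1-/- samples. These 2 comparisons and the genotype comparisons share samples.

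**Figure D3:**
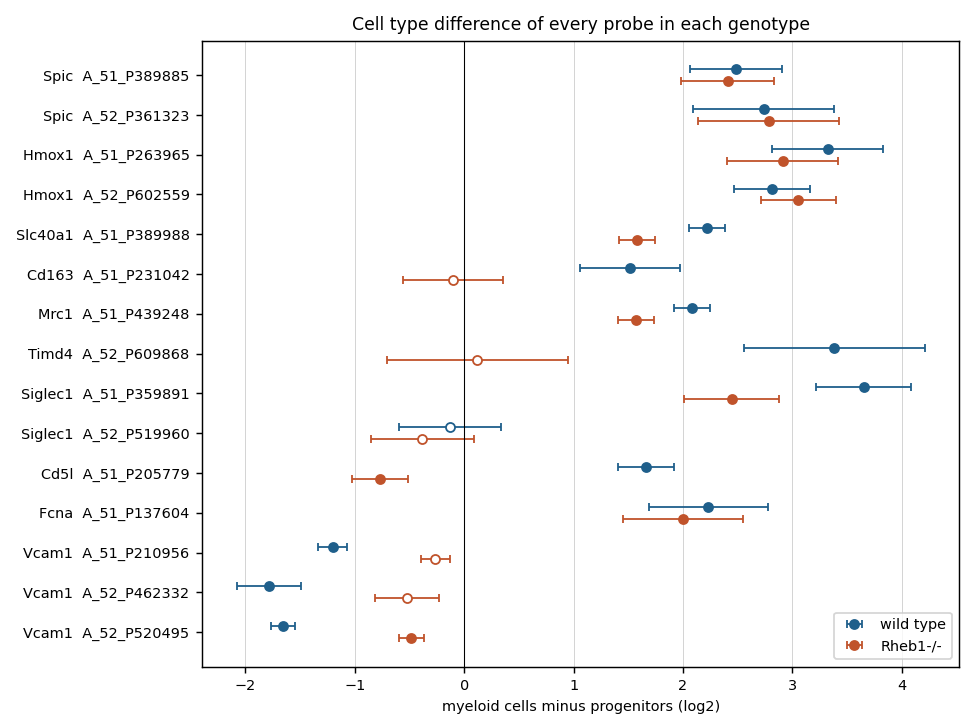
Myeloid cells minus progenitors on the log2 scale for every probe, in wild type (blue) and Rheb1-/- (orange), with standard errors; filled points had a limma adjusted p under 0.05. Vcam1 lies left of 0 in both genotypes, Spic, Hmox1 and Slc40a1 lie right of 0 in both, and Cd5l lies right of 0 in wild type and left of it in Rheb1-/-.

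Ordered by group mean, the genes fell into a few profiles. For Spic, Cd163, Timd4, Fcna, Cd5l and Siglec1 A_51_P359891 the wild-type stem cell array was followed by wild-type myeloid cells and then by the Rheb1-/- stem cell array, with no overlap between the first and the second or between the second and the third. For Hmox1 A_51_P263965 and Slc40a1 the Rheb1-/- stem cell array had the lowest mean of the 6 groups; it lay inside the range of the Rheb1-/- progenitors for Hmox1 and below all progenitors for Slc40a1. For Mrc1 the order was wild-type stem, wild-type myeloid, Rheb1-/- myeloid, Rheb1-/- stem, wild-type progenitors, Rheb1-/- progenitors, and only the 2 progenitor groups overlapped. The 3 Vcam1 probes placed progenitors of both genotypes, which overlapped, directly after the wild-type stem cell array. At A_51_P210956 and A_52_P520495 the Rheb1-/- stem cell array came last, below all wild-type myeloid arrays. At A_52_P462332 it lay within their range, at background like 2 of them.

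Each profile was centred on its own mean over the 6 groups and set against the mean profile of the 10 genes by the root mean square difference in log2 units. Mrc1 was closest to that mean (0.39), followed by Cd163 (0.54), and the Vcam1 probes were farthest (1.62 to 1.77). Over 28336 probes and 6 groups, and with the wild-type stem cell array dominating every profile, the other genes closest to the mean were Adrb1 (0.205), Asb2 (0.288), Pigz (0.305), Igkv2-112 (0.323), Mogat1 (0.324), Igkv9-129 (0.337), Ccn5 (0.355) and Kcnj16 (0.366). Of these 8, 5 were well above background only on the wild-type stem cell array and some wild-type myeloid arrays. Taken 1 gene at a time, the closest to Spic were Igf1 (0.117), C1qc (0.230) and C1qa (0.298), the last 2 encoding chains of complement C1q, which macrophages make. The closest to Slc40a1 were Adgre1 (0.272), which encodes the macrophage antigen F4/80, and Clec1b (0.332), a receptor of platelets. The closest to Siglec1 were Igkv3-4 (0.307) and Iglv1 (0.319), immunoglobulin light-chain gene segments, and the closest to Cd163 was Igkv2-112 (0.302), another. For the others the closest were Lpl for Hmox1 (0.489), Cd209f for Timd4 (0.370), Cmbl for Fcna (0.299), Mrap for Cd5l (0.528), Adrb1 for Mrc1 (0.30) and Fbln5 for Vcam1 (0.411). The last 2 were largely at background, which limits the likeness. Adrb1 was well above background on 0 progenitor arrays. Fbln5 was so on 0 wild-type myeloid arrays and on 1 array of each other replicated group.

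The lists of other genes that follow stand beside the 31.6% of all probes that passed in myeloid cells, 15.5% higher and 16.1% lower, and a count near these shares is no result about its list. Other genes of resident macrophages were mostly lower as well. Of 26 tested, 17 fell and 0 rose in Rheb1-/- myeloid cells, with a median of -0.72, among them Maf, a macrophage transcription factor, by 0.63 (SE 0.09, adjusted p = 0.00124), Igf1, a growth factor, by 2.26 (SE 0.38, adjusted p = 0.00222), and Gas6, a bridge between dying cells and their receptors, by 1.76 (SE 0.31, adjusted p = 0.00258). Without wild-type myeloid arrays 1 and 3, 5 of 26 passed and the median was -0.85. In progenitors 1 fell, Ms4a7, by 1.83 (SE 0.24, adjusted p = 0.0315), and the list median was -0.40. Ms4a7 was well above background on only 1 of 3 Rheb1-/- progenitor arrays, so the size of its fall is uncertain. With normexp or without wild-type myeloid arrays 1 and 3, limma passed 0 of 26 there, with 9 and 13 at an unadjusted p under 0.05. On the stem cell arrays 23 of 25 were past 2-fold lower on the Rheb1-/- array and 0 higher, with a median of -3.51. The summed level of the 28 genes, in units of the array's 75th percentile, was 285 on the wild-type and 29.1 on the Rheb1-/- stem cell array, 21.5 to 24.4 and 16.5 to 19.9 in wild-type and Rheb1-/- progenitors, and 80.1 to 89.3 and 52.5 to 63.6 in wild-type and Rheb1-/- myeloid cells.

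The wider haem and iron machinery gave smaller medians. Of 23 genes tested, 8 fell and 3 rose in Rheb1-/- myeloid cells, with a median of -0.22; transferrin (Trf) fell by 0.71 (SE 0.14, adjusted p = 0.00441), Slc11a1, the iron and manganese transporter of phagosomes, by 1.08 (SE 0.22, adjusted p = 0.00560), and biliverdin reductase B (Blvrb) by 0.86 (SE 0.19, adjusted p = 0.00684). Without wild-type myeloid arrays 1 and 3, 1 of 23 passed. In progenitors limma passed 0 of 23, with 3 at an unadjusted p under 0.05. On the stem cell arrays 7 of 21 were past 2-fold lower, led by Slc11a1 at -4.29 and Lrp1, the receptor for haem bound to haemopexin, at -3.09, and 0 were past 2-fold higher.

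BACH1 and NRF2 are the factors that repress and induce Hmox1. Of 14 genes for these factors, their partners and their targets, 2 rose and 2 fell in Rheb1-/- myeloid cells, a share near that of all probes. Maff, a small Maf partner, rose by 3.28 (SE 0.37, adjusted p = 4.05e-04) while Nqo1, a quinone reductase, fell by 0.84 (SE 0.15, adjusted p = 0.00295). In progenitors limma passed 0 of 14, with 3 at an unadjusted p under 0.05. On the stem cell arrays 0 of 14 were past 2-fold either way, with a median of 0.11, beside the -5.25 of Hmox1 A_51_P263965.

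A list of 8 genes for receptors and adhesion proteins of other cells was examined as well. It includes Itga4 and Itgb1, whose integrin binds VCAM-1, but it is not limited to partners of the 10 genes. Of the 8, 2 fell in Rheb1-/- myeloid cells, and neither is counted here as such a partner. The erythropoietin receptor Epor fell by 1.90 (SE 0.33, adjusted p = 0.00251). The erythroid adhesion molecule Icam4 fell by 1.19 (SE 0.37, adjusted p = 0.0345). Itga4, which encodes an integrin chain that binds VCAM-1, differed by -0.64 (SE 0.14, adjusted p = 0.113) in progenitors, where limma passed 0 of 8, with 2 at an unadjusted p under 0.05. On the stem cell arrays 1 of 8 was past 2-fold lower.

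Markers of other cells moved beside the macrophage genes. Of 17 erythroid markers, 14 fell and 0 rose in Rheb1-/- myeloid cells, with a median of -2.03 and a summed level of 1464 to 2061 in wild-type and 304 to 1063 in Rheb1-/- cells; without wild-type myeloid arrays 1 and 3, 5 of 17 passed. On the stem cell arrays 9 of 15 were past 2-fold lower, and the summed level was 275 on the wild-type and 62.6 on the Rheb1-/- array. B cell markers fell at 6 of 8 genes in myeloid cells and were past 2-fold lower at 7 of 8 on the stem cell arrays, where their summed level was 97.7 and 29.8. Of 9 monocyte markers 1 rose and 2 fell in myeloid cells, counts near those shares. Of 14 neutrophil markers 4 rose and 2 fell, and the rises were a larger share than the 15.5% of all probes. Among those that rose were Ctsg by 1.38 (SE 0.16, adjusted p = 5.04e-04), Prtn3 by 1.61 (SE 0.21, adjusted p = 7.51e-04) and Elane by 1.11 (SE 0.17, adjusted p = 0.00158). In myeloid cells 6 of 10 megakaryocyte and platelet markers fell, with a median of -1.02, and 1 passed without wild-type myeloid arrays 1 and 3. T and NK cell markers rose at 1 and fell at 5 of 8 genes, with and without those arrays. Of 9 dendritic cell markers 3 fell, of 11 endothelial and stromal markers 3, and of 8 eosinophil, basophil and mast cell markers 3, and 1 of each list passed without those arrays. In progenitors 1 of the 11 endothelial and stromal markers passed, Kdr, a receptor for vascular endothelial growth factor, at -1.41 (SE 0.21, adjusted p = 0.0492), and with normexp or without those arrays limma passed 0, with 3 at an unadjusted p under 0.05. On the stem cell arrays 4 of 9 dendritic, 1 of 9 T and NK cell, 2 of 9 megakaryocyte and platelet and 3 of 10 endothelial and stromal markers were past 2-fold lower, among the last the chemokine gene Cxcl12 at -3.92. These counts take only markers well above background on both arrays. Of the 17 endothelial and stromal markers, 14 were well above background on the wild-type array and 11 on the Rheb1-/- array. Kitl, Col1a1, Cdh5 and Dcn were so on the wild-type array only, and Lepr on the Rheb1-/- array only. Past 2-fold higher on the Rheb1-/- array were the megakaryocyte marker Itga2b, from -1.21 to -0.03, and the stromal marker Pdgfrb, from 1.01 to 2.04. On the same arrays 3 of 8 eosinophil, basophil and mast cell markers were past 2-fold lower, and the summed level of the 8 eosinophil, basophil and mast cell markers was 204 and 27.7. The 12 stem cell markers were never past 2-fold apart there, with a median of 0.30 and summed levels of 132 and 162. The part of these other cells in the differences of the macrophage genes was not tested.

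**Figure D4:**
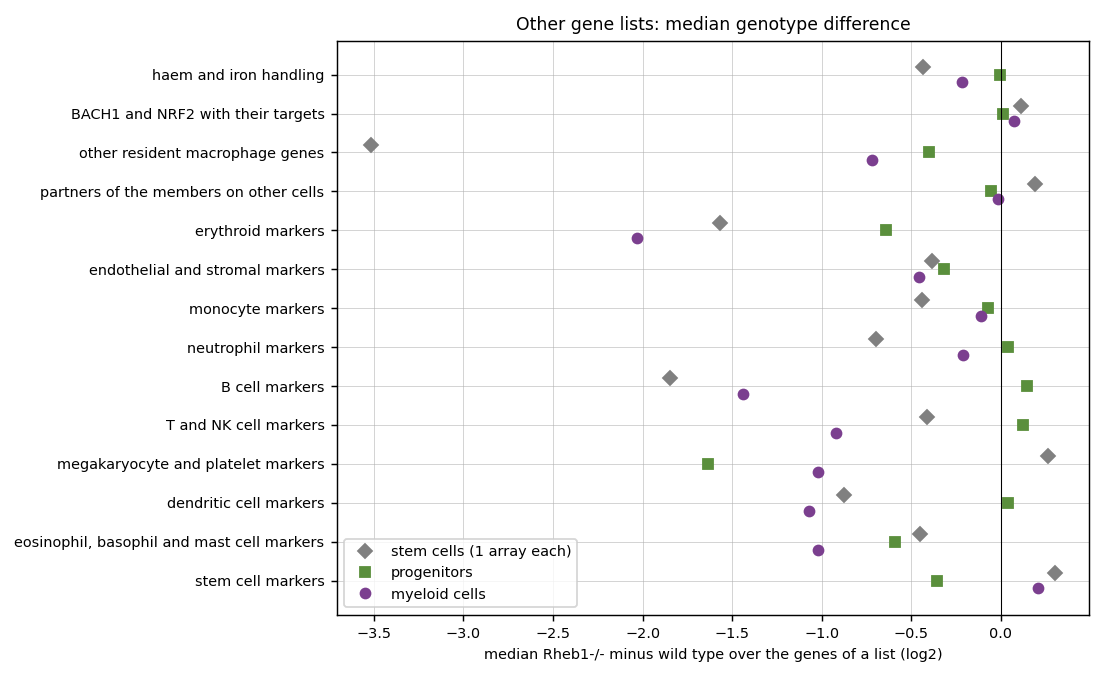
Median of Rheb1-/- minus wild type on the log2 scale over the tested genes of each of 14 lists, in stem cells (diamonds, 1 array each), progenitors (squares) and myeloid cells (circles); no error is drawn because genes of a list are not replicates. Other resident macrophage genes have the lowest median in stem cells (-3.51) and erythroid markers the lowest in myeloid cells (-2.03). The list labelled as partners of the members on other cells holds receptors and adhesion proteins of other cells. It is not limited to partners of the genes examined.

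Promoters were looked at because most of the genes moved together. RefSeq sequences (GRCm38.p6) were matched for Spic, Cd163, Timd4, Fcna, Cd5l and Mrc1, as the 250 bases before the start site. Searched on both strands were TGACNNNGC (antioxidant response element core), the Maf recognition element, GAGGAAGT (an ETS factor motif), CACGTG (the E-box) and TGACCT (a nuclear receptor motif). They are held by 10.2%, 0.134%, 2.44%, 6.02% and 14.02% of 32851 promoters. In these 6 windows 1 match was found, TGACCT on the minus strand of the Timd4 promoter, 116 bases before the start; this says nothing of binding. The Spic promoter (chr10:88683024-88683273, minus strand), the one gene here that encodes a transcription factor, and the Timd4 promoter (chr11:46810549-46810798, plus strand), with the match in capitals, read as follows.
Spic: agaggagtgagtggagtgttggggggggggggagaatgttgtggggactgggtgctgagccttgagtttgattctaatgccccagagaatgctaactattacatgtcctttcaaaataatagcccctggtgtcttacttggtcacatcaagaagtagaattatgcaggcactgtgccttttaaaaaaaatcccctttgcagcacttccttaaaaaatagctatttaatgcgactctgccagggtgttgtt
Timd4: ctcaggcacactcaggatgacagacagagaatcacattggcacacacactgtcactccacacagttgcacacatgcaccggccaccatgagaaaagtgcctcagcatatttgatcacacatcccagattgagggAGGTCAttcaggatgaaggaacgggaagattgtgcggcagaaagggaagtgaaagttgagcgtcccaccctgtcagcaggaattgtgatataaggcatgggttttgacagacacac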

How the data were processed

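Per the file headers, the deposited scanner files hold a processed intensity per spot, background-subtracted and detrended by Agilent Feature Extraction 10.7.3.1 (9.1 per the submitters' processing notes). The deposited value table, in log2 units, has near-identical sorted columns (largest spread 0.106, medians 5.93); its scale follows the log2 processed intensity, and its background treatment is unknown. Control spots and outlier spots (79 to 195 per array) were left out, spots were averaged by probe, and each array's 75th percentile was subtracted on the log2 scale. A probe was fitted if some replicated group had it well above background throughout and every such group had values on at least 2 arrays (27144 probes). limma 3.58.1 (R 4.3.3) fitted 1 mean per group over the 12 replicated arrays; the threshold was a two-sided Benjamini-Hochberg adjusted p under 0.05. A fold given as "at least" replaces a dim signal, array by array, with the lowest well-measured one where that is higher. The 2 stem cell arrays were only described. Fits were tested on simulated data, and the number of arrays limits the precision.

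Named are all probes of the 10 genes and Rheb; per gene list, up to 3 passing genes with the smallest p, otherwise 1 gene with its value; on the stem cell arrays the widest differences; and the nearest profiles (8 for the mean, 3 per gene, given in part). Genes, lists and tests were chosen with earlier results of these data known. Alternatives were normexp (offset 50) on the deposited mean and background intensities, quantile normalization, the deposited table, 1 probe per gene, other filters, replicate or slide as a block, the slide with both progenitor genotypes, the 6 arrays of a cell type, an intensity trend, and each array left out.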

Additional observations from a re-analysis of the deposited data

Results flagged for a closer look

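At 3 probes the genotype effect differed between the cell types by the test of the difference itself. For Cd5l (A_51_P205779) the effect in myeloid cells minus that in progenitors was -2.44. For Vcam1 it was 0.94 at A_51_P210956 and 1.17 at A_52_P520495. Slide and genotype cannot be told apart in myeloid cells.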

How the results depend on the processing

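The number of probes passing between genotypes was 26 in progenitors, 13 with 1 probe per gene, 11 without the filter, 4 with slide as a fixed block, 41 with an intensity trend and 6 to 102 with 1 array left out. limma passed 0 within the shared slide and 0 with the 6 progenitor arrays alone, with 2030 and 3182 at an unadjusted p under 0.05. It was 8580 in myeloid cells and 3191 without wild-type myeloid arrays 1 and 3. The difference between the cell types passed at 2546 probes, 1014 without the filter, 352 without those arrays and 1131 to 2871 with 1 array left out. Between cell types 20844 probes passed in wild type and 18476 in Rheb1-/-, or 13765 and 12139 with 1 probe per gene. Deviations from the group means were correlated between same-numbered wild-type and Rheb1-/- samples. The correlations were -0.03 to 0.11 in progenitors and -0.16 to -0.04 in myeloid cells. They gave no sign of pairing by number, which so few arrays per group cannot exclude. With replicate number as a block 28, 7942 and 1760 probes passed for the genotype in progenitors, in myeloid cells and the difference. The higher share of calls moved from 49.0% to 59.3% (quantile) or 59.4% (deposited table) in myeloid cells, from 49.3% to 64.1% or 64.2% for the difference, and from 73.1% to 33.3% (normexp) in progenitors.

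Signs changed at 27 values of the 10 genes in other settings and at 34 with 1 array left out, against 687 and 846 that kept their sign and side of the threshold, and the cause was not tested. In progenitors Vcam1 A_51_P210956 became -0.042 (normexp) and -0.0042 (slide as a random block), Vcam1 A_52_P520495 0.0053 (fixed block, shared slide), Hmox1 A_52_P602559 0.14 (quantile, deposited table) and Siglec1 A_52_P519960 -0.048 (normexp) and -0.48 (fixed block, shared slide). In myeloid cells Vcam1 A_52_P462332 became -0.022 (normexp), Hmox1 A_52_P602559 0.28 and Siglec1 A_52_P519960 0.29 (quantile, deposited table). The difference became -0.87 (normexp) and -0.31 (without wild-type arrays 1 and 3) for Spic A_52_P361323, -0.067 and -0.095 for Hmox1 A_52_P602559, and 0.29 (quantile, deposited table) for Siglec1 A_52_P519960. Between cell types Cd163 became 0.098 (normexp) and 0.22 (fixed block), Timd4 -0.18, -0.19 and -0.14 (quantile, deposited table, random block) in Rheb1-/-, and Siglec1 A_52_P519960 0.25 in wild type and 0.0056 in Rheb1-/- (normexp). With 1 array left out the ranges were, in progenitors, -0.15 to 0.078 and -0.17 to 0.0064 for Vcam1 A_51_P210956 and A_52_P520495 and -0.61 to 0.40 for Siglec1 A_52_P519960. In myeloid cells they were -0.40 to 0.16 for Hmox1 A_52_P602559 and -0.45 to 0.084 for Siglec1 A_52_P519960. For the difference they were -0.56 to 0.35 and -0.61 to 0.71 for the Spic probes, -0.85 to 0.27 and -0.11 to 0.52 for the Hmox1 probes, -0.83 to 0.29 for Fcna and -0.61 to 0.40 for Siglec1 A_52_P519960. Between cell types they were -0.65 to 0.43 for Cd163 and -0.29 to 0.51 for Timd4 in Rheb1-/-, and -0.78 to 0.23 for Siglec1 A_52_P519960 in wild type. A fixed slide block gave no value for the myeloid genotype comparison, the difference or the wild-type cell types. Probes near background, such as Hmox1 A_52_P602559 and Siglec1 A_52_P519960, limit what a sign can show.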
